A study of Mus musculus with 27 samples.

Results

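MHC class I antigen presentation was followed through 9 genes in nuclei of the mouse hippocampus. H2-K1 and H2-D1 encode the polymorphic heavy chains, and B2m encodes the light chain that every class I molecule carries. Psmb8 and Psmb9 encode catalytic subunits of the immunoproteasome, Tap1 and Tap2 both chains of the peptide transporter, and Tapbp the chaperone tapasin. Nlrc5 encodes the transactivator of class I genes. The 9 genes were taken by symbol from the 31053 genes of the count matrices, and the list was chosen with earlier results of these data known.

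Class I molecules display peptides from inside the cell to CD8 T cells. The proteasome cuts proteins into peptides, the TAP transporter pumps them into the endoplasmic reticulum, and tapasin holds an empty heavy chain with its light chain at the transporter until a peptide is bound. Interferons raise the whole set, in part by inducing NLRC5, which acts on a conserved module of class I promoters. In healthy brain the pathway is known to be high in endothelium and low in neurons.

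The libraries came from single-nucleus RNA-seq of hippocampi from 27 mice, with 1 library per mouse. The mice were littermates from a cross of Cgas-/- animals with tau transgenics, which express human tau with the P301S mutation from the mouse prion protein promoter. Mice without the transgene are called tau-free here: 5 carried both Cgas alleles (Cgas+/+, 2 of them female), 2 males carried 1 allele (Cgas+/-) and 2 males carried none (Cgas-/-). Each Cgas genotype was also taken with the transgene, giving the groups P301S Cgas+/+, P301S Cgas+/- and P301S Cgas-/-, of 3 males and 3 females apiece. The labels give no age, and the ranges in the study's text differ, so none is given here. Cgas encodes the cytosolic DNA sensor upstream of STING and type I interferon, and the comparisons ask what tau pathology and the loss of Cgas alleles do to these genes in each type of nuclei.

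Libraries held 46091490 to 79484316 UMIs, and 204852 of 241938 barcodes were kept (5840 to 12572 per library). The kept nuclei fell into classes named from marker genes, among them 11416 microglia-like, 26974 astrocyte-like, 45784 oligodendrocyte-like, 6990 oligodendrocyte precursor (OPC)-like, 971 endothelial-like, 12418 inhibitory and 79106 excitatory neuron-like nuclei. Dentate granule, CA1 and CA3 clusters of the labelled tissue were present, beside 16790 cortical-like and 3792 striatal projection neuron-like nuclei. Pairs of libraries shared 8 to 48 barcodes. The Cgas transcript, listed as Mb21d1, did not follow the labels: in microglia-like nuclei it lay at 32.2 to 38.9 CPM (UMIs scaled to an equal total for each library and class) in Cgas+/+, at 21.6 to 33.1 in Cgas-/-, at 26.3 to 56.3 in P301S Cgas+/+ and at 39.9 to 58.5 in P301S Cgas-/- libraries. The labels do not say which exons are deleted, and 3′ counts with intronic reads may lie outside them, so these counts do not check the Cgas labels, and Cgas groups below are the libraries labelled so. Gm43049, chosen after its values were seen, followed the transgene labels, with 0 to 0.128 CPM in tau-free and 3.08 to 20.96 CPM in P301S excitatory neuron-like nuclei. The count matrices name 2 software versions in their headers, 3.0.2 in 12 libraries, all from males, and 3.1.0 in 15, and the members' levels between P301S and tau-free groups are given within each version for the leading genes. The other gene lists, shares of nuclei and correlations rest on both versions and were not split.

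On mm10 (GRCm38, GENCODE annotation), 7 of the 9 genes lie on chromosome 17 in or beside the major histocompatibility complex. Psmb9, Tap1, Psmb8 and Tap2 are neighbours within 34335 bases, at chr17:34181987-34216321. H2-K1 lies at chr17:33996017-34000347 on the minus strand, H2-D1 at chr17:35262730-35267499, B2m at chr2:122147686-122153083 and Nlrc5 at chr8:94434356-94527272, all 3 on the plus strand.

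The promoters of the heavy and light chains are shown because these 3 genes share a letter pattern that the other members with a promoter lack. RefSeq promoters on GRCm38.p6, 250 bases before to 50 bases after the start, matched 7 of 9 members, and Tap2 and Nlrc5 had none. Both strands were searched for exact letters, and capitals mark matches. An unmarked stretch may therefore hold a variant of any of these elements, and the marks do not divide the genes by type of element. In H2-K1 and H2-D1 the first capitals are a run of 10 bases of NF-κB type, and TGACG and ATTGG follow. In B2m the first capitals match the core of the interferon-stimulated response element, GAAA on either side of any 2 bases, and TGACG and ATTGG follow. TGACG and ATTGG are letters of the X2 and Y boxes of the module on which NLRC5 is known to act.
H2-K1, chr17:34000349-34000468, minus strand: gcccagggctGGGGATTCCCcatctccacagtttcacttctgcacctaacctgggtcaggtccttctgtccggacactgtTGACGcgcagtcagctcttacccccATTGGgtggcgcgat
H2-D1, chr17:35262913-35263032, plus strand: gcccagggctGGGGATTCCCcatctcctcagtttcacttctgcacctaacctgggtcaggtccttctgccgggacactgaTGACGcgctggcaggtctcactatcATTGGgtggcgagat
B2m, chr2:122147538-122147648, plus strand: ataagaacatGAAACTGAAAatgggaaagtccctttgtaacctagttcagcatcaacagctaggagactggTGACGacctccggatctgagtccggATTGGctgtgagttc

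In each of the 3 sequences, 20 bases separate TGACG from ATTGG. The pair with this gap was present in 26 of 27025 promoters (0.0962%). The NF-κB type run was present in 28 (0.104%) and the response element core in 943 (3.49%). Alone, TGACG was in 5 of the 7 members with a promoter, against 5681 of all 27025 promoters, and ATTGG in 6, against 10248 (37.9%). The interferon-gamma activated site (TTC and GAA around any 3 bases) matched Psmb8 among the members, against 8.47% of promoters. The Tap1 and Psmb9 windows overlap by 275 bases, since these genes start back to back on opposite strands, with gene models that overlap at their starts. The pair with its gap and the NF-κB type run were searched after these sequences had been read, so the counts are a description. The GENCODE model of H2-D1 begins upstream of the RefSeq start, so the H2-D1 stretch lies within the gene in that annotation.

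Without the transgene, the heavy chains H2-K1 and H2-D1 had their highest medians in endothelial-like nuclei, followed by microglia-like nuclei, and their lowest in both neuron classes, with the few T cell-like nuclei left aside. Other members were ordered differently: Tap2 and Psmb9 had similar medians in microglia-like (46.5 and 14.9 CPM) and endothelial-like nuclei (43.5 and 14.5 CPM), and Tap1 was lowest in oligodendrocyte-like nuclei, at a median of 0.471 CPM. H2-K1 lay at 144.9 to 327.3 CPM in 7 tau-free endothelial libraries, at 11.1 to 46.9 CPM in 9 microglial ones and at 8.19 to 22.9 CPM in astrocyte-like nuclei. It lay at 0 to 7.88 CPM in OPC-like, 1.96 to 7.67 in oligodendrocyte-like, 0.501 to 1.17 in inhibitory and 0.261 to 0.799 CPM in excitatory neuron-like nuclei. Pericyte or smooth muscle-like nuclei, with 9 UMIs of H2-K1 over 8 tau-free libraries, lay at 0 to 31.1 CPM (median 12.8), overlapping microglia-like and astrocyte-like nuclei. For H2-D1 they lay at 0 to 57.2 CPM (median 21.7). The endothelial range did not overlap the microglial one, with a higher value in 7 of 7 libraries, and the astrocyte range did not overlap that of OPC-like nuclei (9 of 9). The ranges of OPC-like and oligodendrocyte-like nuclei overlapped, as did those of inhibitory and excitatory neurons.

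B2m kept the same leading pair. Its tau-free range in microglia-like nuclei, 44.2 to 109.4 CPM, overlapped that of endothelial-like nuclei at 29.0 to 166.9 CPM and lay wholly above the astrocyte range of 2.20 to 9.48 CPM. H2-D1 lay at 138.2 to 330.4 CPM in endothelial-like and at 18.8 to 84.9 CPM in microglia-like nuclei, which did not overlap. In P301S libraries the endothelial lead over microglia no longer separated the ranges. H2-K1 there had a median of 270.7 CPM in endothelial-like and 131.5 CPM in microglia-like nuclei, and the endothelial value was the higher in 13 of 14 libraries. Nlrc5 was ordered differently in P301S libraries, with a median of 109.2 CPM in microglia-like and 36.2 CPM in endothelial-like nuclei, and the microglial value was the higher in 11 of 14.

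**Figure D1:**
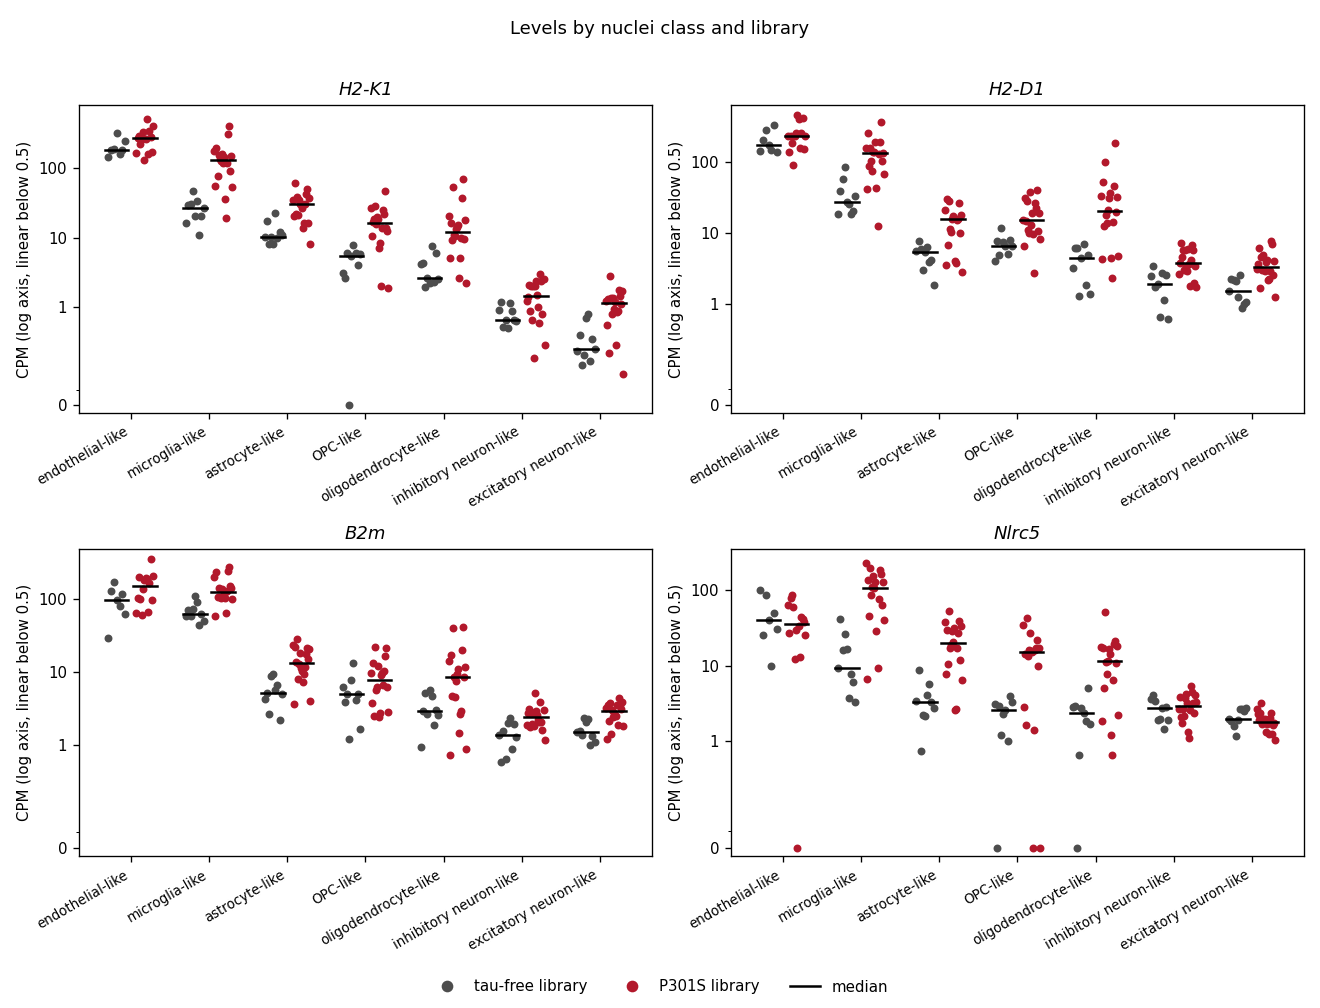
CPM of H2-K1, H2-D1, B2m and Nlrc5 (vertical, log axis that is linear below 0.5) in 7 nuclei classes (horizontal), 1 point per library, grey for tau-free and red for P301S, with a black line at the median. Endothelial-like nuclei overlap between grey and red, while for H2-K1 in microglia-like nuclei 16 of 18 red points lie above the highest grey one.

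In microglia-like nuclei of P301S mice, the heavy chains, the light chain, Tap1, Tapbp and Nlrc5 were higher than in tau-free mice. The test set the mean of the 3 P301S groups against the mean of the 3 tau-free groups, each group with equal weight, over all 27 libraries (edgeR quasi-likelihood test with Benjamini-Hochberg adjustment over 9690 genes). The Cgas+/- and Cgas-/- groups, 2 males each, are all of header version 3.0.2, while Cgas+/+ and the P301S groups span both versions. The study left both genotypes out of its downstream analyses because of their sample size. The test called 6 of 9 members higher and 0 lower, where 11.5% of all genes tested were called in either direction. The members' median log2 fold change was 1.09, against 0.003 over all genes tested.

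H2-K1 rose with 16 of 18 P301S libraries above every tau-free one, the most of the 9. Tau-free values were 16.5, 29.2, 30.5, 46.9 and 20.4 CPM in Cgas+/+, 33.4 and 11.1 in Cgas+/- and 20.8 and 26.5 in Cgas-/- libraries. P301S values ran from 55.9 to 198.0 (median 146.7) in P301S Cgas+/+, from 18.9 to 160.9 (median 122.7) in P301S Cgas+/- and from 53.2 to 401.7 CPM (median 136.5) in P301S Cgas-/- libraries. P301S Cgas+/- replicates 5 and 6 were the only P301S libraries within the tau-free range. The log2 fold change was 2.61 (SE 0.48, adjusted p = 0.0029), or 6.11-fold.

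H2-D1, the other heavy chain, lay at 18.8 to 84.9 CPM (median 27.8) in tau-free and at 12.6 to 374.7 CPM (median 133.2) in P301S libraries. Its ranges overlapped, and 13 of 18 P301S libraries were above the highest tau-free one. The log2 fold change was 2.06 (SE 0.47, adjusted p = 0.00894). B2m, the shared light chain, moved less, from 44.2 to 109.4 CPM (median 61.3) to 57.6 to 269.4 CPM (median 122.1). Its log2 fold change was 1.09 (SE 0.25, adjusted p = 0.00823), a 2.13-fold rise, with 10 of 18 P301S libraries above every tau-free one. Because class I heavy chains are near-identical in sequence, reads may be split or lost between H2-K1, H2-D1 and their paralogs.

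Nlrc5 had the highest fold of the 9. Tau-free values were 9.41, 41.3, 16.4, 26.4 and 16.7 CPM in Cgas+/+, 3.71 and 7.90 in Cgas+/- and 6.13 and 3.32 in Cgas-/- libraries. P301S values ran from 6.77 to 232.3 (median 112.7) in P301S Cgas+/+, from 9.47 to 154.3 (median 109.2) in P301S Cgas+/- and from 40.5 to 188.2 CPM (median 103.6) in P301S Cgas-/- libraries. Of the P301S libraries, 14 of 18 were above the highest tau-free one. The log2 fold change was 3.70 (SE 0.67, adjusted p = 0.0029), and the low values of the 2-mouse groups carry equal weight in it.

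Among the processing and loading genes Tap1 and Tapbp passed, and Tap2, Psmb8 and Psmb9 did not. Differences between these genes were not tested. Tap1 lay at 6.32 to 26.4 CPM in tau-free and 6.31 to 75.9 CPM in P301S libraries, with a log2 fold change of 1.18 (SE 0.36, adjusted p = 0.0338). For Tap1 too the 2-mouse groups were low, at 6.32 to 7.43 CPM in Cgas+/- and 9.95 to 13.5 CPM in Cgas-/- against 11.1 to 26.4 CPM in Cgas+/+ libraries, and against Cgas+/+ alone the P301S Cgas+/+ libraries gave 0.57 (SE 0.44, adjusted p = 0.562). Tapbp lay at 14.9 to 56.2 and 37.9 to 89.8 CPM, with a log2 fold change of 0.79 (SE 0.20, adjusted p = 0.013). Tap2, the partner of Tap1 in the transporter, lay at 19.0 to 55.9 and 19.2 to 80.8 CPM and did not pass (log2 fold change 0.23, SE 0.22, 95% interval -0.21 to 0.66, adjusted p = 0.582). The immunoproteasome subunits did not pass either. Psmb8 lay at 0 to 11.8 and 1.90 to 22.2 CPM (log2 fold change 0.70, SE 0.45, adjusted p = 0.349), and Psmb9 at 9.37 to 29.7 and 5.42 to 56.3 CPM (0.56, SE 0.28, adjusted p = 0.208). Psmb8 is a sparse measurement here, with medians of 7.43 and 7.18 CPM.

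**Figure D2:**
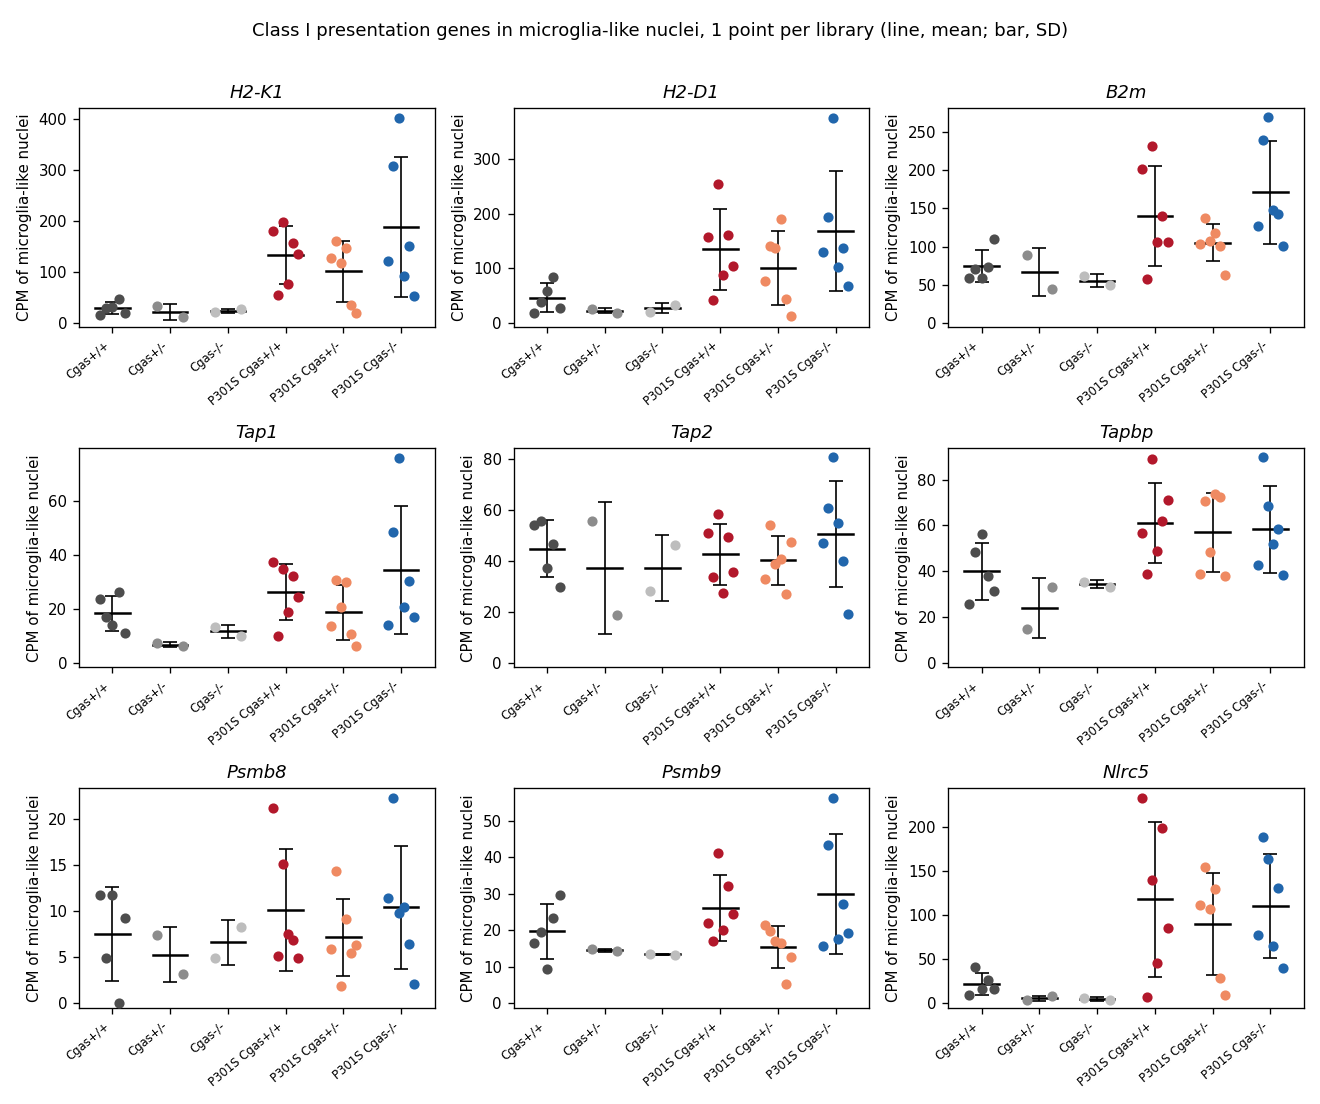
CPM in microglia-like nuclei (vertical) for each of the 9 genes in the 6 genotype groups (horizontal), 1 point per library, with the group mean as a line and the SD as a bar. The P301S groups stand above the tau-free groups for H2-K1, where their means are 133.9, 101.5 and 188.1 CPM against 28.7, 22.2 and 23.7 CPM, and not for Tap2.

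No member separated P301S from tau-free libraries completely in microglia-like or astrocyte-like nuclei, where 0.0413% and 0.0145% of all genes did so upwards. A set of 4 P301S libraries lay low in several of the gene and class pairs, though not in all. P301S Cgas+/+ replicate 2, P301S Cgas+/- replicates 5 and 6 and P301S Cgas-/- replicate 6 were exactly the libraries not above the tau-free maximum for Nlrc5 in all of the microglia-like, the astrocyte-like and the oligodendrocyte-like sums, for Tap1 in astrocyte-like nuclei and for H2-K1 and H2-D1 in oligodendrocyte-like nuclei. For H2-K1 in OPC-like nuclei the libraries not above were P301S Cgas+/- replicates 3 (7.22 CPM) and 5 (1.99 CPM) and P301S Cgas-/- replicate 6 (1.88 CPM). The 4 belong to all 3 P301S groups, and their depth, 58968055 to 72860458 UMIs, lay within that of the other libraries. P301S Cgas+/+ replicate 2 is male and of header version 3.0.2, while the rest of the 4 are female and of version 3.1.0. Of the 4, P301S Cgas+/+ replicate 2, P301S Cgas+/- replicate 5 and P301S Cgas-/- replicate 6, were also among 5 libraries with fewer than 20 CA3-like nuclei. The part of these measures in the result was not tested.

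In astrocyte-like nuclei 5 of the 6 genes called in microglia-like nuclei were also called, at lower levels, and Psmb9 besides. The test called 6 of 8 members higher (2.79% of 13794 genes called), and Psmb8 was too sparse to test. Nlrc5 lay at 0.750 to 8.81 CPM in tau-free and 2.63 to 53.7 CPM (median 19.97) in P301S libraries, a log2 fold change of 2.60 (SE 0.53, adjusted p = 0.0226). H2-K1 went from 8.19 to 22.9 CPM to 8.22 to 60.6 CPM (median 30.7), with a log2 fold change of 1.23 (SE 0.29, adjusted p = 0.0303). H2-D1 (1.61, adjusted p = 0.0408), B2m (1.42, adjusted p = 0.0337), Tap1 (1.33, adjusted p = 0.0399) and Psmb9 (1.97, adjusted p = 0.0474) also passed. Psmb9 rests on few counts, with 19 UMIs over the 9 tau-free libraries (0 to 0.925 CPM) and 152 over the 18 P301S libraries (0 to 4.92 CPM), so it could enter the fit through the P301S libraries alone and its call supports nothing about the set. Tap2 (0.32, adjusted p = 0.319) and Tapbp (0.26, adjusted p = 0.349) did not. B2m, H2-D1, H2-K1, Nlrc5 and Tap1 were called in both glial classes, while Tapbp passed in microglia-like and Psmb9 in astrocyte-like nuclei only, a difference between classes that was not tested.

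The astrocyte calls were fragile. With each library left out, the log2 fold change was 1.05 to 1.48 for H2-K1, 1.46 to 1.87 for H2-D1 and 1.26 to 1.62 for B2m. For Tap1 it was 1.17 to 1.59 and for Nlrc5 2.5 to 2.77, so the calls moved more than the estimates. Over all genes, the 385 calls fell to 5 without Cgas+/- replicate 1, 1 without Cgas+/- replicate 2, 2 without Cgas-/- replicate 1 and 1 without Cgas-/- replicate 2, so every astrocyte count given here, the other gene lists included, rests on these 4 libraries. Of the 27 libraries, 13 changed the count to 3 or fewer when left out. The count fell to 0 without either Cgas+/- or either Cgas-/- library, to 1 to 3 without Cgas+/+ replicates 1, 3, 4 or 5, P301S Cgas+/+ replicate 1, P301S Cgas+/- replicates 2 or 3 or P301S Cgas-/- replicates 2 or 5, and to 2 with the header version as a covariate. The microglial count fell to 3 without Cgas+/- replicate 2 and was 4 to 6 without any other library. Over all genes, the 1116 microglial calls ran from 244 without Cgas+/- replicate 2 to 1399 without P301S Cgas+/+ replicate 2, and were also more than 1.5 times fewer without Cgas+/- replicate 1, Cgas-/- replicate 1 or Cgas-/- replicate 2. The counts for the other gene lists given below come from the same fits and were not repeated without a library.

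**Figure D3:**
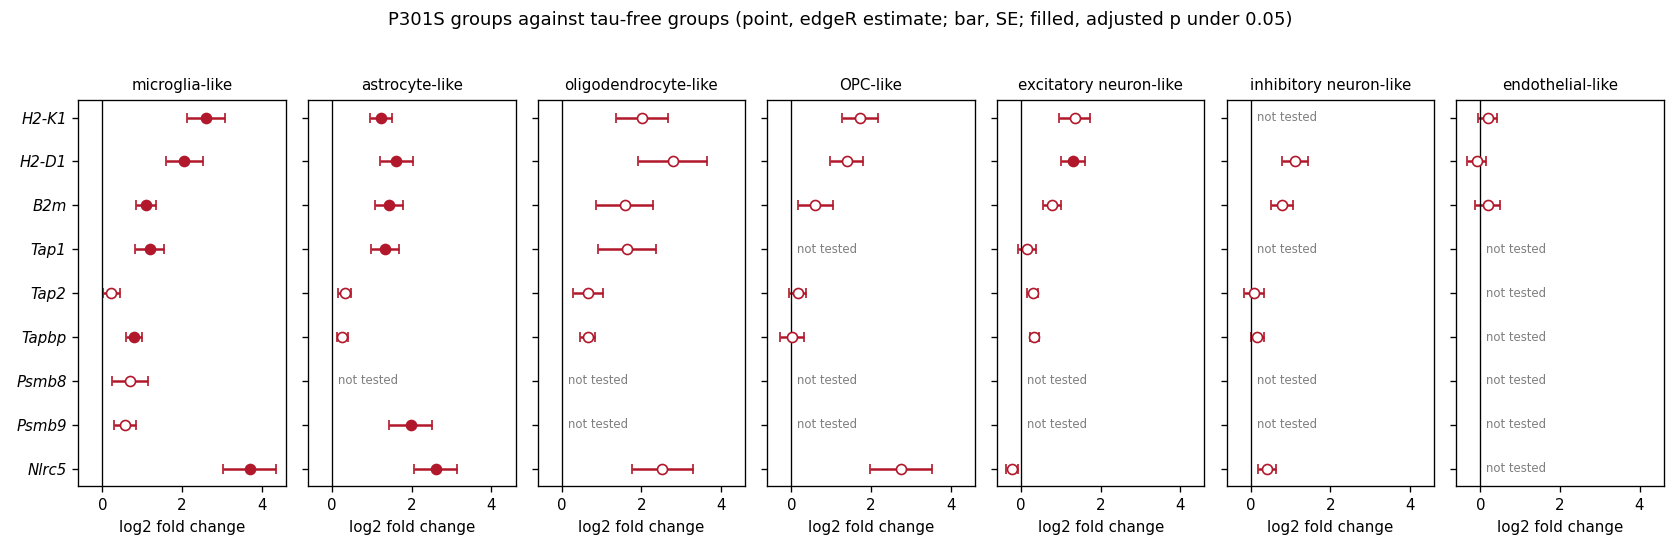
Log2 fold change (horizontal) of the P301S groups against the tau-free groups for each gene (vertical) in 7 nuclei classes, with the SE as a bar and filled points for an adjusted p under 0.05. Points are filled for 6 genes in microglia-like, 6 in astrocyte-like and 1 in excitatory neuron-like nuclei.

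In the other classes the estimates mostly lay above 0 without passing. Oligodendrocyte-like nuclei had 0 of 7 tested members called (0.00769% of genes called), 6 of them with an unadjusted p under 0.05 and all above 0, and DESeq2 called 3. Over all genes, 1750 of 13004 had an unadjusted p under 0.05, and DESeq2 called 195 of 13002. H2-D1 lay there at 1.31 to 7.08 CPM in tau-free and 2.34 to 186.7 CPM (median 20.7) in P301S libraries, with 14 of 18 above the tau-free range and a log2 fold change of 2.79 (SE 0.87, adjusted p = 0.166). H2-K1 reached 2.02 (adjusted p = 0.177) and Nlrc5 2.53 (adjusted p = 0.149), each with 14 of 18 libraries above the tau-free range. OPC-like nuclei had 0 of 6 called (0.327% of genes called), 3 with an unadjusted p under 0.05, and DESeq2 called 3, where 1232 of 10094 genes had an unadjusted p under 0.05 and DESeq2 called 145. H2-K1 in OPC-like nuclei lay at 0 to 7.88 and 1.88 to 46.7 CPM, with 15 of 18 above the tau-free range and a log2 fold change of 1.72 (SE 0.45, adjusted p = 0.095).

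Neurons had low levels of the heavy chains. In excitatory neuron-like nuclei only H2-D1 passed of 7 members tested (2.26% of genes called), at 0.902 to 2.59 CPM in tau-free and 1.26 to 7.83 CPM (median 3.39) in P301S libraries, a log2 fold change of 1.30 (SE 0.30, adjusted p = 0.0267). B2m (0.78, adjusted p = 0.0578) and H2-K1 (1.35, adjusted p = 0.0626) did not pass, and 14 of 18 P301S libraries had H2-K1 above the tau-free range of 0.261 to 0.799 CPM. Nlrc5 was at -0.23 (SE 0.14, adjusted p = 0.412). The H2-D1 call was lost without Cgas+/- replicate 2, Cgas-/- replicate 1, Cgas-/- replicate 2 or P301S Cgas-/- replicate 2 and within either header version. By region, the H2-D1 median went from 1.36 to 2.83 CPM in CA1-like, from 2.01 to 4.26 in CA3-like, from 1.20 to 1.60 in dentate granule-like and from 1.86 to 3.93 CPM in cortical-like nuclei between tau-free and P301S libraries, with overlapping ranges in each. Inhibitory neuron-like nuclei had 0 of 5 called (0.0225% of genes called), 2 with an unadjusted p under 0.05 (949 of 13342 genes) and H2-D1 at 1.11 (SE 0.33, adjusted p = 0.304).

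Endothelial-like nuclei, with the highest tau-free heavy chain medians of the classes tested, were fitted on the 21 libraries with at least 20 such nuclei, leaving out Cgas+/+ replicates 3 and 4, P301S Cgas+/+ replicates 3 and 4, P301S Cgas+/- replicate 6 and P301S Cgas-/- replicate 3. The tau-free females were among those left out, so the tau-free side is all male and the P301S side of both sexes. On the tau-free side only Cgas+/+ replicate 5 is of header version 3.1.0. The sign for H2-D1 changed without the sex term, as listed at the end. The test called 0 of 3 members (0.0% of 2838 genes called, 163 with an unadjusted p under 0.05), and 0 members had an unadjusted p under 0.05. The log2 fold change was 0.18 for H2-K1 (95% interval -0.27 to 0.64), -0.09 for H2-D1 (-0.56 to 0.39) and 0.19 for B2m (-0.43 to 0.80). For H2-K1 and H2-D1 these intervals lie below the microglial estimates of 2.61 and 2.06. The difference between the classes was not tested.

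Within the libraries of header version 3.0.2, H2-K1 in microglia-like nuclei lay at 11.1 to 33.4 CPM in 6 tau-free and 55.9 to 307.9 CPM in 6 P301S libraries, which did not overlap. Within version 3.1.0 it lay at 20.4 to 46.9 CPM in 3 tau-free and 18.9 to 401.7 CPM in 12 P301S libraries, which overlapped. Version 3.0.2 is all male, so version and sex are partly confounded. In males of both versions H2-K1 lay at 11.1 to 33.4 CPM in tau-free and 55.9 to 307.9 CPM in P301S libraries, without overlap. In females, all of version 3.1.0, it lay at 30.5 to 46.9 CPM in Cgas+/+ and 18.9 to 401.7 CPM in P301S libraries, with overlap. In the fit within version 3.0.2, H2-K1 (2.81, adjusted p = 0.00979) and H2-D1 (2.23, adjusted p = 0.0137) passed, while Nlrc5 (3.74, adjusted p = 0.0609) and B2m (1.20, adjusted p = 0.0648) did not. Within version 3.1.0, with 3 tau-free Cgas+/+ and 12 P301S libraries, 0 members were called, with H2-K1 at 2.03 (adjusted p = 0.26), Nlrc5 at 2.34 (adjusted p = 0.241) and H2-D1 at 1.32 (adjusted p = 0.426). The calls over all genes within each version are not given here, so a count of 0 with so few libraries is no result about the members. In astrocyte-like nuclei Nlrc5 was at 2.27 (adjusted p = 0.0477) in version 3.0.2 and 3.57 (adjusted p = 0.239) in 3.1.0. The direction was the same within both versions for H2-K1, H2-D1 and Nlrc5 in microglia-like and Nlrc5 in astrocyte-like nuclei. Between tau-free and P301S microglia-like nuclei, the medians of Psmb8, Psmb9 and Tap2 moved in different directions in each version. Reversed estimates in other classes and comparisons are listed at the end.

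The comparison of P301S Cgas+/+ with Cgas+/+ alone asks for the effect of tau with Cgas intact. It called 0 members in any of the 7 classes, and few genes at all: 0.044% in microglia-like, 0.00768% in astrocyte-like, 0.00807% in oligodendrocyte-like, 0.0% in OPC-like, 0.0237% in excitatory, 0.00789% in inhibitory neuron-like and 0.0% in endothelial-like nuclei. With an unadjusted p under 0.05 there were 5 of 8 members in microglia-like, 6 of 8 in astrocyte-like, 5 of 6 in oligodendrocyte-like, 3 of 5 in OPC-like, 3 of 7 in excitatory, 2 of 5 in inhibitory neuron-like and 0 of 3 in endothelial-like nuclei, and each of those lay above 0. Over all genes tested, the same limit was met by 1417 of 9089 in microglia-like, 1522 of 13016 in astrocyte-like, 832 of 12385 in oligodendrocyte-like, 781 of 9001 in OPC-like, 389 of 16909 in excitatory, 361 of 12679 in inhibitory neuron-like and 70 of 2495 in endothelial-like nuclei. This comparison shares its libraries with the one over all groups. In microglia-like nuclei H2-K1 was at 2.28 (SE 0.61, adjusted p = 0.0973), Nlrc5 at 2.54 (SE 0.75, adjusted p = 0.121), H2-D1 at 1.56 (adjusted p = 0.196), B2m at 0.90 (adjusted p = 0.16) and Tap2 at -0.05 (adjusted p = 0.96).

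In that comparison 1 member in microglia-like nuclei (1.09% of genes) and 2 in astrocyte-like nuclei (1.07% of genes) had every P301S Cgas+/+ library above every Cgas+/+ library. In microglia-like nuclei this was H2-K1, at 16.5 to 46.9 against 55.9 to 198.0 CPM. DESeq2 called H2-K1 (adjusted p = 0.00273) and Nlrc5 (adjusted p = 0.0224) in microglia-like nuclei, H2-K1, Tap1 and Nlrc5 in astrocyte-like and 1 member in OPC-like nuclei. Over all genes it called 242 of 9089, 174 of 13014 and 19 of 9001 in these classes. Without P301S Cgas+/+ replicate 2, edgeR called 3 members in microglia-like nuclei (H2-K1, B2m and Nlrc5) and 2 in astrocyte-like nuclei (H2-K1 and Nlrc5). All genes called then went from 4 to 387 in microglia-like and from 1 to 75 in astrocyte-like nuclei.

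Loss of Cgas gave no call among the P301S mice. Between P301S Cgas-/- and P301S Cgas+/+ libraries 0 members were called in any of the 7 classes, by edgeR or DESeq2, and edgeR called 0.0% of genes in each class. Over all genes, 224 in microglia-like and 606 in astrocyte-like nuclei had an unadjusted p under 0.05, and DESeq2 called 0 and 1 there and 123 in excitatory neuron-like nuclei. In microglia-like nuclei 0 of 8 members tested had an unadjusted p under 0.05. H2-K1 had a mean of 188.1 ± 136.4 CPM (SD, n = 6) in P301S Cgas-/- and 133.9 ± 56.8 CPM (SD, n = 6) in P301S Cgas+/+ libraries, a log2 fold change of 0.42 (95% interval -0.46 to 1.29). Nlrc5 was at -0.21 (-1.27 to 0.85), H2-D1 at 0.29 (-0.61 to 1.19) and B2m at 0.25 (-0.27 to 0.76). Each of these intervals holds changes in both directions, so a fall or a rise within its limits could not be told from no change.

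In astrocyte-like nuclei P301S Cgas-/- libraries had H2-K1 at -0.12 (95% interval -0.77 to 0.53) and Nlrc5 at -0.31 (-1.40 to 0.79) relative to P301S Cgas+/+. In excitatory neuron-like nuclei Nlrc5 was at -0.58 (SE 0.19, unadjusted p = 0.00594, adjusted p = 0.221). P301S Cgas+/- libraries against P301S Cgas+/+ had 0 members called in any class, where 0.0% of genes were called in 6 classes and 0.00789% in inhibitory neuron-like nuclei (194 genes had an unadjusted p under 0.05 in microglia-like nuclei, and DESeq2 called 0 there). All 8 estimates in microglia-like nuclei were below 0, from -0.08 for Tapbp to -0.76 for Psmb9, and Psmb9 had the only unadjusted p under 0.05 (0.0264, adjusted p = 1.0). H2-K1 was at -0.37 (-1.27 to 0.52), with the low libraries P301S Cgas+/- replicates 5 and 6 in this group. Tap2 in excitatory neuron-like nuclei was at 0.58 (unadjusted p = 0.00275, adjusted p = 0.196).

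**Figure D4:**
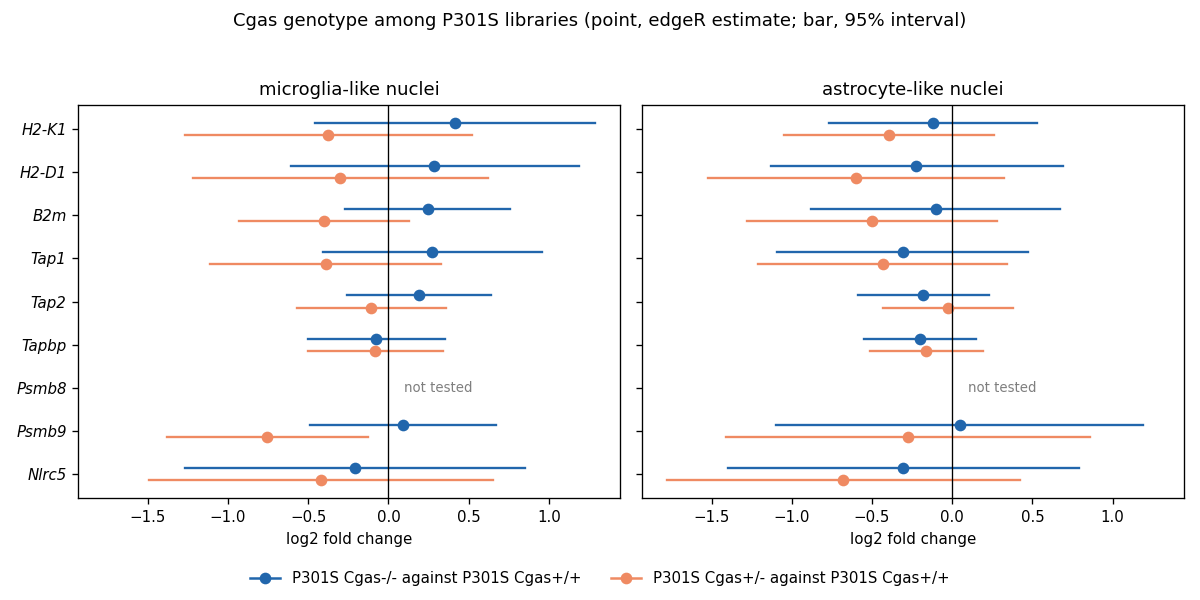
Log2 fold change (horizontal) of P301S Cgas-/- (blue) and P301S Cgas+/- (orange) libraries relative to P301S Cgas+/+ for each gene (vertical), in microglia-like and astrocyte-like nuclei, with the 95% interval as a bar. Every interval except that of Psmb9 for P301S Cgas+/- in microglia-like nuclei includes 0, and Psmb8 was not tested.

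Among tau-free mice, the 2 Cgas-/- libraries gave 0 members called against the 5 Cgas+/+ libraries in any class. The calls over all genes are not given here, so the 0 is no result about the members. Both Cgas-/- libraries are of header version 3.0.2 and the Cgas+/+ libraries span both versions, so genotype and version are partly confounded. In microglia-like nuclei all 9 estimates were below 0, with H2-K1 at -0.28 (95% interval -2.14 to 1.58) and Nlrc5 at -2.22 (-5.21 to 0.78). The test of whether the Cgas-/- effect differed with the transgene also called 0 members in any class. It rests on the same tau-free libraries, and its calls over all genes are not given here either. Its smallest adjusted p among members was 0.0671, for Nlrc5 in excitatory neuron-like nuclei (-1.16, SE 0.31), and H2-K1 in microglia-like nuclei was at 0.69 (-1.35 to 2.73). The test of whether the tau effect differed between females and males called 0 members in 6 classes, with its calls over all genes not given here, and could not be fitted in endothelial-like nuclei. Its smallest adjusted p was 0.239, for Tapbp in excitatory neuron-like nuclei (-0.62).

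A level can rise in few nuclei or in many. Each nucleus was thinned to 1000 UMIs, nuclei with fewer were left out, and the share with at least 1 UMI was taken per library. H2-K1 was found in 1.44% to 4.39% of tau-free (median 2.09%) and 2.22% to 33.3% of P301S microglia-like nuclei (median 11.7%). The unthinned medians were 4.11% and 19.7%, at median depths of 1419 and 1753 UMIs, and 229 tau-free and 286 P301S nuclei were left out. Excitatory neuron-like nuclei, a class known to be low in class I, were taken beside these for free RNA. They had medians of 0.0419% and 0.106% after thinning and 0.354% and 1.10% before, at median depths of 9224 and 9374 UMIs. Thinning removes more of the UMIs of these deeper nuclei, so their thinned share sets no limit on free RNA in microglia-like nuclei.

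H2-D1 went from a median of 1.95% to 10.8% of microglia-like nuclei and B2m from 5.92% to 11.3%. In endothelial-like nuclei H2-K1 was found in 10.7% to 32.4% of tau-free and 10.3% to 46.2% of P301S nuclei, and in astrocyte-like nuclei in 0.442% to 2.69% and 0.58% to 7.02%. In most P301S libraries, then, a minority of microglia-like nuclei held a class I heavy chain UMI at this depth. These shares limit nuclei with a UMI, not nuclei that express the gene.

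**Figure D5:**
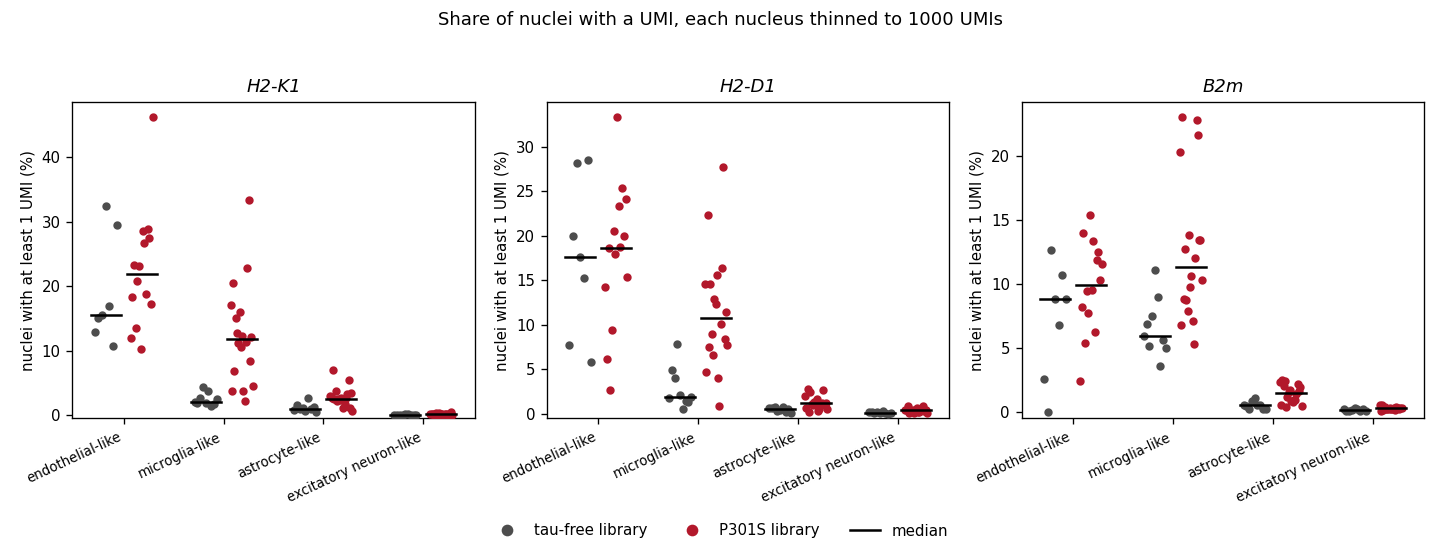
Share of nuclei with at least 1 UMI (vertical, %) of H2-K1, H2-D1 and B2m in 4 nuclei classes (horizontal) after thinning to 1000 UMIs, 1 point per library, grey for tau-free and red for P301S, with a black line at the median. For H2-K1 the microglial points spread from 1.44% to 4.39% in grey and from 2.22% to 33.3% in red, while excitatory neuron-like nuclei stay at or below 0.43%.

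Markers of other cells were measured beside the microglial result. The 15 T cell genes summed to 35.1 to 76.2 CPM in tau-free and 6.39 to 84.7 CPM in P301S microglia-like nuclei, and the 8 border macrophage markers to 245.0 to 639.8 (median 381.5) and 107.3 to 390.5 CPM (median 222.6), ranges that overlap. The 13 microglia markers summed to 11110 to 13450 CPM in tau-free and 7123 to 12670 CPM in P301S libraries. The 10 endothelial markers went from 37.5 to 83.7 CPM (median 55.7) to 18.9 to 265.7 CPM (median 78.7) and so moved in part with the members, and their part in the result was not tested. In astrocyte-like nuclei the 13 microglia markers summed to 67.3 to 90.0 and 70.9 to 101.5 CPM, and Cd3e, Cd8a and Nkg7 were at 0. Nuclei that were themselves T cell-like numbered 24 in tau-free (0 to 8 per library) and 259 in P301S libraries (1 to 57), too few to test. Over their sums H2-K1 was at 298.5 and 526.3 CPM (6 and 135 UMIs), H2-D1 at 696.4 and 304.1 CPM (14 and 78 UMIs) and Nlrc5 at 746.2 and 530.2 CPM (15 and 136 UMIs), so the members did not share a direction there.

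Of the 17 other class I heavy chains listed, 9 could be tested in microglia-like nuclei. In the P301S groups 5 of these were higher, 0 were lower and the rest did not pass, with a list median of 1.16, where 11.5% of all genes passed. H2-T22 (1.16, adjusted p = 0.00917) and the Qa-region genes H2-Q4 (2.31, adjusted p = 0.0127), H2-Q7 (5.17, adjusted p = 0.0176) and H2-Q6 (3.74, adjusted p = 0.0269) are non-classical heavy chains and share sequence with H2-K1 and H2-D1. In astrocyte-like nuclei, where 2.79% of all genes passed, 2 of 8 did, H2-T22 (1.14) and H2-Q4 (2.91), and at most 1 of these calls can hold without Cgas+/- replicate 2 or Cgas-/- replicate 2.

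Other genes of peptide supply and loading did not pass in the glial classes. Of 8 peptide loading and trimming genes tested in microglia-like nuclei 0 passed, with a median of 0.06, where 11.5% of all genes passed. They included the lectin chaperones Calr (0.03, adjusted p = 0.96) and Canx (0.06, adjusted p = 0.809) and the trimming peptidase Erap1 (0.44, adjusted p = 0.0766). Of 5 other proteasome genes 0 passed, with the activator subunit Psme1 at 0.79 (adjusted p = 0.0892) and the constitutive subunit Psmb7 at 0.25 (adjusted p = 0.241). In astrocyte-like nuclei 0 of 9 loading and 0 of 10 proteasome genes passed, where 2.79% of all genes did. At these shares a count of 0 among so few genes is no result about the lists. Erap1 passed in excitatory neuron-like nuclei, at 0.62 (adjusted p = 0.0246), in a fit whose calls over all genes fell from 402 to as few as 6 with 1 library left out (Cgas+/- replicate 2).

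Interferon signalling genes were higher in part. In microglia-like nuclei 6 of 15 signalling genes and class I transcription factors passed, among them Stat2 (1.38, adjusted p = 0.00793), which carries the type I interferon signal to the nucleus, the NF-κB subunit Nfkb1 (0.60, adjusted p = 0.00206) and the interferon-gamma receptor chain Ifngr2 (0.44, adjusted p = 0.0203). Of 28 interferon-stimulated genes 25 passed, with a median of 1.27, where 11.5% of all genes passed. In astrocyte-like nuclei 21 of 30 passed, with a median of 1.92, where 2.79% of all genes did, and at most 1 of the 21 can hold without Cgas+/- replicate 2 or Cgas-/- replicate 2. Examples are Usp18, a feedback inhibitor of the interferon receptor (3.33 in microglia-like and 5.04 in astrocyte-like nuclei), and Trim30a (1.22 and 2.86). Genes of this list that were low in tau-free libraries could enter the fits through the P301S libraries alone, so its counts are a description.

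MHC class II genes, which present to CD4 T cells, were also higher. In microglia-like nuclei 6 of 7 passed, where 11.5% of all genes did, with the transactivator Ciita at 3.83 (adjusted p = 0.0115) and the invariant chain Cd74 at 3.96 (adjusted p = 0.0174). Cd74 lay at 0 to 44.5 CPM in tau-free and at 8.47 to 811.6 CPM in P301S libraries. Here, as in the lists of interferon-stimulated genes and other heavy chains, genes low in tau-free libraries could enter the fit through the P301S libraries alone. These counts are therefore a description. Cd74 was the 1 class II gene tested in astrocyte-like nuclei and passed (3.60, adjusted p = 0.0383), in the fit whose calls nearly all went without any 1 of the 4 libraries named above. Of the 2 T cell genes tested in microglia-like nuclei 0 passed. Of 5 neuronal and choroid transcripts used as a measure of free RNA, 1 fell, Slc17a7, with a log2 fold change of -0.86 (adjusted p = 0.0101). In the comparison of P301S Cgas+/+ with Cgas+/+, and in that of P301S Cgas-/- with P301S Cgas+/+, 0 genes of these 8 lists passed in microglia-like or astrocyte-like nuclei. Over all genes, the first called 4 of 9089 and 1 of 13016 in these classes and the second 0 in each, so this is no result about the lists.

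Across the 27 libraries the members did not vary as one block in microglia-like nuclei. Spearman's rho of log2(CPM + 1) was 0.956 between H2-K1 and H2-D1, 0.901 between H2-K1 and Nlrc5, 0.904 between H2-D1 and Nlrc5 and 0.883 between B2m and Nlrc5, but 0.22 between Psmb8 and Psmb9 and 0.27 between Tap2 and Tapbp. The 10 other genes most like the mean of the 9 members were H2-Q4 (0.923), Rnf213 (0.921), Oas1a (0.921), Sp100 (0.896), Usp18 (0.893), Slfn5 (0.891), Oasl2 (0.884), Trim30a (0.882), Eif2ak2 (0.875) and the class II gene H2-Ab1 (0.875). These are descriptions, with no test, over points that share the tau-free and P301S grouping and the class libraries' depth. Psmb8 rests on few counts, with 179 UMIs over the 27 libraries, so its low rho cannot be told from counting noise.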

How the data were processed

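Nuclei of 27 hippocampi were sorted on DAPI and sequenced with 10x 3′ chemistry. The deposited matrices hold raw UMI counts per gene and barcode. The authors ran Cell Ranger against mm10 to obtain them, counting pre-mRNA reads, so intronic reads are included. The submitters' processing notes name Cell Ranger 3.1.0, and 12 matrix headers name 3.0.2.

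Barcodes with 200 to 4000 genes and at most 5% mitochondrial counts were kept, as in the study's methods. Of 241938 barcodes, 20030 were over the gene limit, 0 under it and 627 over the mitochondrial one, and 16429 were removed as doublets by a simulation score at 0.8% per 1000 barcodes. Leiden clustering (scanpy 1.11.5, igraph 0.11.9, 2000 variable genes, 30 components, 15 neighbours, resolution 1.0) gave 48 clusters, named from at least 3 markers, and 10661 nuclei stayed unnamed. A naming threshold of 65% was chosen after the data were seen. Names were rebuilt here, so classes may differ from the study's.

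UMIs were summed per library and class and given as CPM, scaled to the class sum. Sums of at least 20 nuclei entered edgeR 4.0.16 quasi-likelihood fits (R 4.3.3) over all genes, with TMM scaling, genotype group and sex, and Benjamini-Hochberg adjustment at 0.05. The study tested nuclei with MAST. Intervals are the estimate ± 1.96 SE and, like p-values, measure the spread between libraries, 1 mouse each. The fits were tested on simulated counts. DESeq2 1.42.0, other scaling, filters, covariates and left-out libraries were alternatives, and fits within a header version were added after the data were seen.

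The members, gene lists and markers were chosen with earlier results of these data known. Named genes were all members, up to 4 genes of lowest p per other list (called genes first), and the 10 genes of highest Spearman's rho with the members' mean. Where others are named, they were chosen after their values were seen. A gene that this rule would name is not reported here. Replicate numbers follow accession order and pair nothing.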

Additional observations from a re-analysis of the deposited data

Results flagged for a closer look

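In groups of 4 to 10 libraries, 108 combinations of gene and group were looked at in the microglial, astrocytic and oligodendroglial classes, 3 chosen after the data were seen. In 11, the highest or lowest library stood apart by a gap larger than the 95% limit of Dixon's test, where chance gives about 1 in 20. In microglia-like nuclei B2m in Cgas+/+ replicate 5 was at 109 CPM against a group median of 70.5 CPM. In astrocyte-like nuclei H2-K1 in Cgas+/+ replicate 2 was at 17.6 CPM against a median of 10.2 CPM.

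The other 9 were in oligodendrocyte-like nuclei. P301S Cgas+/+ replicate 5 stood apart for H2-K1 (53.4 CPM, group median 13.7), Tap2 (8.46 CPM, median 3.38), Psmb9 (1.79 CPM, median 0.108) and Nlrc5 (52.1 CPM, median 14.4). P301S Cgas-/- replicate 3 had 187 CPM of H2-D1 against a median of 26.4 CPM. P301S Cgas+/+ replicate 3 had 12.5 CPM of Tapbp against a median of 9.27 CPM. P301S Cgas+/- replicate 2 stood apart for Psmb9 (1.26 CPM, median 0.39) and Psmb8 (0.63 CPM, median 0). Psmb8 in Cgas+/+ replicate 2 was at 0.267 CPM against a median of 0 CPM. The Psmb8 values are 2 UMIs in P301S Cgas+/- replicate 2 and 1 UMI in Cgas+/+ replicate 2. With the other Cgas+/+ libraries at 0, any UMI there would have stood apart, so the Cgas+/+ case is no sign of a deviating library and the count of 11 includes it only by construction. The interaction tests put no member past the threshold.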

How the results depend on the processing

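In microglia-like nuclei 6 members were called higher in the P301S groups under DESeq2, other size factors, no count filter, no sex term, the header version as a covariate, a minimum of 500 genes, a doubled doublet rate and without clusters of 1 library. With each library left out the count was 3 to 6 in microglia-like, 0 to 6 in astrocyte-like, 0 to 1 in OPC-like and 0 to 3 in excitatory neuron-like nuclei. Over all genes, the calls in these classes ran from 244 to 1399, 1 to 789, 6 to 118 and 6 to 1152. For P301S Cgas+/+ against Cgas+/+ the member count was 0 to 3 in microglia-like and 0 to 2 in astrocyte-like nuclei, the highest without P301S Cgas+/+ replicate 2. Over all genes, 0 to 387 and 0 to 75 were called there. Members called between P301S and tau-free groups numbered 2 in microglia-like, 2 in astrocyte-like, 3 in OPC-like and 0 in excitatory neuron-like nuclei within header version 3.0.2, and 0 in microglia-like, astrocyte-like and excitatory neuron-like nuclei within 3.1.0, with fewer libraries in each. The calls over all genes in these fits are not given here, so the counts have no background share beside them. DESeq2 called 3 in oligodendrocyte-like, 3 in OPC-like and 3 in excitatory neuron-like nuclei. No count filter gave 1 in astrocyte-like and 2 in OPC-like nuclei, the version covariate 2 in astrocyte-like and no sex term 2 in excitatory neuron-like nuclei. For P301S Cgas+/+ against Cgas+/+, DESeq2 called 2 in microglia-like, 3 in astrocyte-like and 1 in OPC-like nuclei, no count filter 4 in microglia-like and a fit of the 2 groups alone 1 in OPC-like nuclei. The comparisons of Cgas genotypes among P301S libraries had 0 members called under every alternative run. The cause of these changes was not tested. Where no calls over all genes are given in this report for an alternative, its member count has no background share and shows only that the calls shift with processing.

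Every reversed value belonged to a difference that was not called. Within version 3.0.2 the log2 fold change between P301S and tau-free groups was -0.022 for Tap1 in excitatory neuron-like nuclei, that of P301S Cgas+/+ against Cgas+/+ was -0.074 for Tapbp in astrocyte-like nuclei, and that of P301S Cgas-/- against P301S Cgas+/+ was 0.088 for Nlrc5 in microglia-like nuclei and 0.394 for H2-K1, 0.396 for H2-D1 and 0.153 for B2m in astrocyte-like nuclei. Within 3.1.0 the P301S groups gave -0.008 for Tapbp and 0.14 for Nlrc5 in excitatory neuron-like, -0.136 for Tap2 and -0.2 for Tapbp in OPC-like and -0.174 for H2-K1 and -0.376 for B2m in endothelial-like nuclei, and P301S Cgas+/+ against Cgas+/+ gave 0.199 for Tap2 in microglia-like nuclei. The version covariate gave -0.05 for Tapbp in OPC-like, no sex term 0.221 for H2-D1 in endothelial-like and no count filter 0.042 for Tap2 in microglia-like nuclei (P301S Cgas+/+ against Cgas+/+).

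With each library left out, the P301S groups gave -0.019 to 0.482 for Tap2 in microglia-like, -0.025 to 0.392 for Tap1 in excitatory neuron-like, -0.079 to 0.124 for Tapbp in OPC-like and -0.263 to 0.164 for H2-D1 in endothelial-like nuclei, and P301S Cgas+/+ against Cgas+/+ gave -0.159 to 0.071 for Tap2 in microglia-like nuclei. P301S Cgas-/- against P301S Cgas+/+ gave -0.038 to 0.585 for H2-K1, -0.078 to 0.495 for H2-D1 and -0.484 to 0.092 for Nlrc5 in microglia-like nuclei, and -0.395 to 0.117 for H2-K1, -0.508 to 0.049 for H2-D1, -0.361 to 0.178 for B2m and -0.627 to 0.168 for Nlrc5 in astrocyte-like nuclei.

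Thinned to 500 UMIs instead of 1000, the mean share of nuclei with a UMI was 1.12% and 6.53% for H2-K1 in tau-free and P301S microglia-like nuclei (2.47% and 12.4% at 1000), 6.09% for H2-D1 in P301S microglia-like nuclei (11.5% at 1000), 8.97% and 12.2% for H2-K1 in tau-free and P301S endothelial-like nuclei, 8.22% for H2-D1 in tau-free endothelial-like nuclei, and for B2m 3.3% and 6.22% in tau-free and P301S microglia-like, 6.06% in P301S endothelial-like and 0.149% in P301S excitatory neuron-like nuclei. Shares scale with the depth they are taken at. Endothelial-like sums of 38667 to 135831 UMIs per library left 3 members testable, so changes there were not detectable for the rest. The doubled doublet rate gave no endothelial value. No paired analysis was possible because the replicate numbers follow accession order and are in no label.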
